A study of Mus musculus with 4 samples.

Results

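The histone cluster genes on the array were the genes whose name in the scanner files starts with Hist1h, Hist2h, Hist3h or Hist4h. They numbered 49, with 55 non-control probes, of 34844 gene names and 55681 probes in all. By class, 6 were H1 genes, 14 were H2a, 12 were H2b, 8 were H3 and 9 were H4. The probes of 36 genes lay on chromosome 13, those of 8 on chromosome 3, those of 3 on chromosome 11 and that of 1 gene on chromosome 6, on mouse build mm9 per the file headers. The position of 1 of the 3 Hist1h4i probes and of the Hist2h3c2-ps probe was listed as unmapped.

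H2A, H2B, H3 and H4 are the core histones around which DNA is wound in the nucleosome, and H1 is the linker histone that binds the DNA between nucleosomes. Most genes of these clusters are transcribed in S phase, when newly copied DNA is packed. Their mRNAs typically end in a conserved stem-loop in place of a poly(A) tail, although some of the genes also give polyadenylated mRNAs, as in cells that have left the cycle. Marrow stem cells are mostly quiescent and the progenitors they give rise to divide more often.

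Expression was measured with 1-colour Agilent arrays in 4 samples of mouse bone marrow cells, 1 array per group. The groups were cKO LT-HSC, WT LT-HSC, cKO MPP and WT MPP. LT-HSC are long-term stem cells, sorted as CD34- Flt3- LSK cells, and MPP are multipotent progenitors, sorted as CD34+ Flt3+ LSK cells, where LSK stands for lineage-negative, Sca-1+ and Kit+. Donors were 10-week-old male C57BL/6J mice, either wild type (WT) or with a conditional knockout (cKO) of p38, the stress-activated kinase whose alpha form is encoded by Mapk14. In all 4 groups the sorted cells were stained with the division dye CFSE, transplanted into Ly5.1 congenic mice after a dose of 9.5 Gy, and sorted again as CFSE-positive cells 16 h later. The Cre line, the deleted exons and the number of mice behind each array are not given in the sources used here. With 1 array per group no difference between arrays had a replicate check, no p-value goes with it, and the precision is limited by how few arrays there were.

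All arrays lay on 1 slide, with 62.5% to 70.5% of spots well above background and 0 saturated spots. Mapk14 had 2 probes. One gave a signal of 490.5 on the cKO LT-HSC array, 474.2 on WT LT-HSC, 594.5 on cKO MPP and 621.1 on WT MPP, and the other gave 912.2, 1447, 1024 and 951.2 in the same order. On the normalized scale cKO minus WT at the first probe was 0.13 for LT-HSC and -0.03 for MPP, and at the other probe -0.58 and 0.13. Since the deleted part is not given, these probes do not check the genotype.

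Many histone probes read letters that several genes of a class share, so their values cannot be assigned to 1 gene. Of the 55 probes, 16 had a run of at least 20 bases in common with the probe of another histone cluster gene. In 12 of these the sharing was within a class. The rest, of Hist2h2aa1, Hist2h2bb, Hist1h3a and Hist1h3i, hold a stem-loop and share the run across classes. Also, 9 of the 55 shared such a run with a probe outside the clusters. The following H2a probes show the sharing within a class. Capitals mark the longest run shared with the Hist1h2ah probe, or for Hist1h2ah itself with any other of the H2a probes. Each ends in the letters of a stop codon.
Hist1h2ah (mm9 chr13:22127035-22127094, minus strand): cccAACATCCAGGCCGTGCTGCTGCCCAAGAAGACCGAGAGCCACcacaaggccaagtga
Hist1h2af (mm9 chr13:23626113-23626172, plus strand): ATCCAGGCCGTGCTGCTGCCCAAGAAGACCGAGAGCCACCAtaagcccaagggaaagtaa
Hist1h2ak (mm9 chr13:21845304-21845363, minus strand): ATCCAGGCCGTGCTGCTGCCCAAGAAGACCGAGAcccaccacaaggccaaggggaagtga
Hist2h2ac (mm9 chr3:96024378-96024437, minus strand): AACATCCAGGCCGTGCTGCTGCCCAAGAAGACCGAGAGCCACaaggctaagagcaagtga

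The H4 probes with shared letters are shown in the same way, with capitals for the longest run in common with the Hist1h4j probe, or for Hist1h4j with either of the others. The Hist1h4k probe shown is the dimmer of the 2 for that gene.
Hist1h4j (mm9 chr13:21826989-21827048, plus strand): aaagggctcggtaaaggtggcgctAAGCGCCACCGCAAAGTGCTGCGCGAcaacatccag
Hist1h4d (mm9 chr13:23673515-23673574, plus strand): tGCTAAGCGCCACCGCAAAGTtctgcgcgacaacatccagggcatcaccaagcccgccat
Hist1h4k (mm9 chr13:21842279-21842338, minus strand): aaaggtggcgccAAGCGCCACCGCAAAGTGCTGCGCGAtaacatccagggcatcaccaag

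A whole stem-loop of 16 letters was found in 6 probes of the array, all of them histone cluster probes. That is 10.9% of their probes and 0.0108% of all probes. The 30 bases around it are shown for the 4 of these that were measured on all arrays, with the stem-loop in capitals.
Hist2h2aa1 (mm9 chr3:96049949-96049978, plus strand): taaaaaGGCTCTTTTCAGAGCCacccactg
Hist1h3g (mm9 chr13:23627749-23627778, plus strand): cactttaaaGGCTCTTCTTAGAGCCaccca
Hist1h3i (mm9 chr13:21874784-21874813, minus strand): ataacaaaaGGCTCTTTTCAGAGCCccctc
Hist1h4m (mm9 chr13:21903990-21904019, plus strand): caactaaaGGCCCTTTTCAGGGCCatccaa

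Other probes held fewer G and C bases and shared no 20-base run with another histone cluster probe. The first 30 bases are shown for 3 of them, since their genes ran against most of the family in the comparisons.
Hist1h1c (mm9 chr13:23832018-23832047, plus strand): tacacttgctttgccttattttgatcagca
Hist1h2bc (mm9 chr13:23784254-23784283, plus strand): gctgcaaaattaagatgctcctagcaaaag
Hist2h2be (mm9 chr3:96026893-96026922, plus strand): aagtctgttcctgaactggcattagagccc

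The level of a probe on an array, as used here, is its log2 processed signal relative to the 75th percentile of that array. A gene was represented by its brightest probe. Of the 49 genes, 41 were well above background on all 4 arrays, 2 on 3 arrays, 4 on 1 array and 2, Hist1h1d and Hist1h2ae, on none. Each comparison used the 42 genes well above background on both of its arrays. Values with ± are a difference and the scanner software's own error of it, which covers neither cells, sorts nor RNA amplification. The median error over the histone cluster genes was 0.2 on the log2 scale.

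The map of the 4 arrays gives the overall pattern. Of the 41 genes, 30 were lower on both LT-HSC arrays than on both MPP arrays, and 26 ran in the order WT LT-HSC, cKO LT-HSC, cKO MPP and WT MPP from low to high. A further 6 genes were highest on WT LT-HSC, namely Hist1h1c, Hist2h2aa1, Hist3h2a, Hist1h2bc, Hist2h2be and Hist1h4m.

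**Figure D1:**
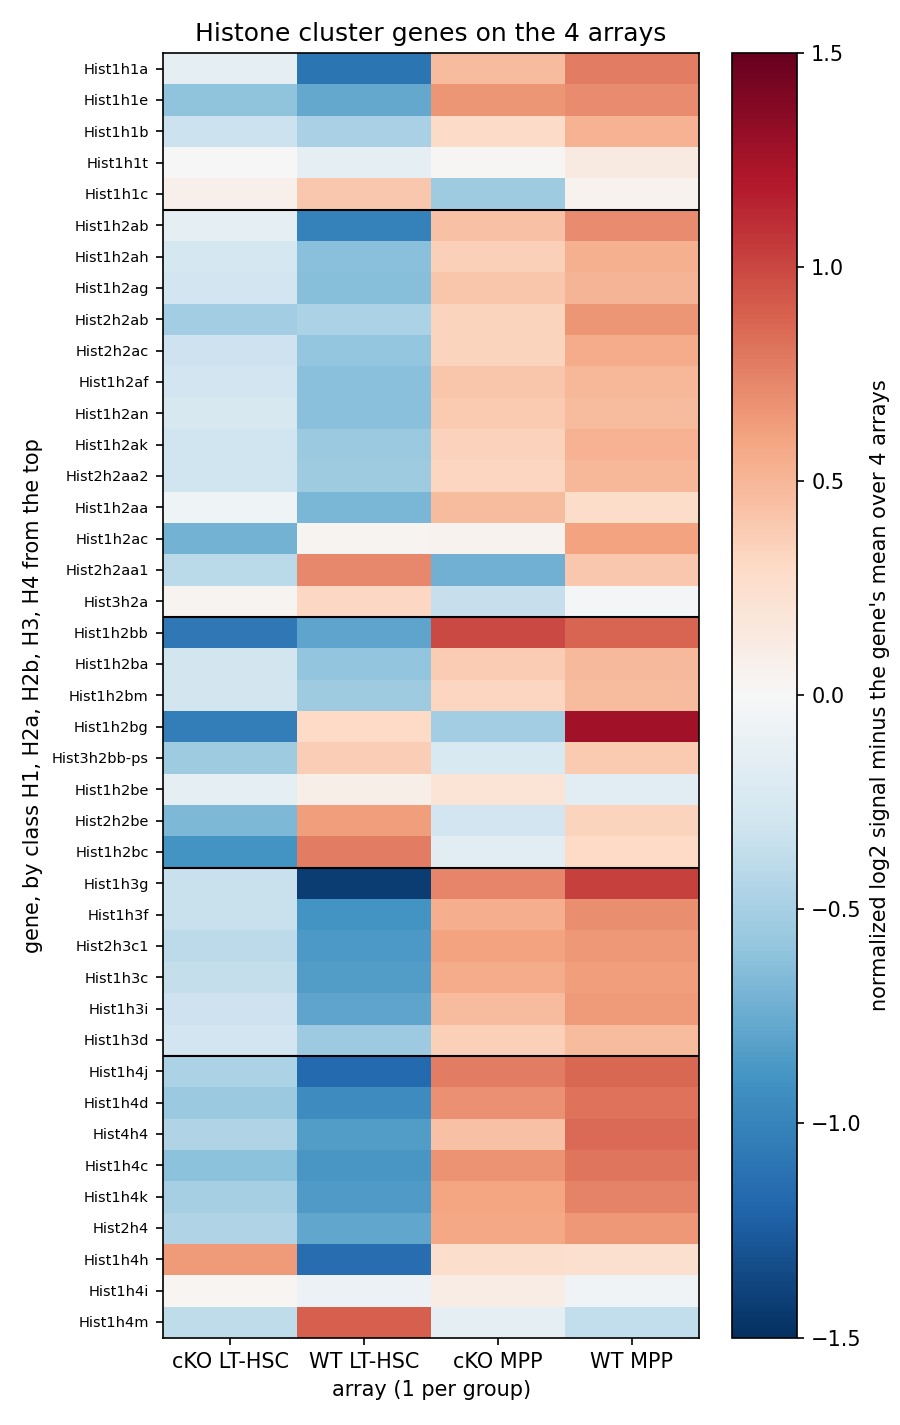
Colour gives the normalized log2 signal minus the gene's own mean over the 4 arrays, for the 41 genes well above background on all of them, 1 row per gene and 1 column per array. Within each class the genes are ordered by their LT-HSC minus MPP difference in WT. Most rows are blue in both LT-HSC columns and red in both MPP columns, and the lowest rows of H1, H2a, H2b and H4 are not.

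The question of the first comparison was how LT-HSC differed from MPP after the transplant. In cKO, 8 of 42 histone cluster genes were lower in LT-HSC by 2-fold or more, beside 6.44% of all genes, and 0 were higher, beside 6.67%. In WT, 28 of 42 were lower by 2-fold or more, beside 18.1% of all genes, and 1 was higher, beside 9.13%. Genes whose probes share a run within their class are not separate measurements. Of these, 11 of 11 were lower in WT and 2 of 11 in cKO. Of genes whose probe holds stem-loop letters, 3 of 5 were lower in WT and 1 of 6 in cKO. Of the other genes, 14 of 26 were lower in WT and 5 of 25 in cKO. At 1.5-fold, 28 histone cluster genes were lower in cKO (19.6% of all genes) and 30 in WT (32.6%), while 2 were higher in cKO (13.5%) and 1 in WT (16.3%). The median LT-HSC minus MPP difference was -0.64 in cKO and -1.11 in WT, beside -0.09 and -0.20 over all genes. The counts depended on the scaling. With quantile normalization 5 were lower in cKO and 14 in WT, with the normexp background correction and quantile normalization 4 and 11, and with the percentile taken over probes above background on every array 5 and 18. The medians were -0.42 in cKO and -0.67 in WT with quantile normalization, and -0.34 and -0.61 with normexp and quantile normalization.

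Class medians of the LT-HSC minus MPP difference ran from -0.52 for H2b to -1.03 for H4 in cKO. In WT they ran from -0.29 for H2b to -1.60 for H4, with -1.01 for H1, -1.10 for H2a and -1.49 for H3. Every measured H3 gene was lower in LT-HSC by 2-fold or more in WT, whereas the H2b genes ran from -1.67 to 0.47.

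**Figure D2:**
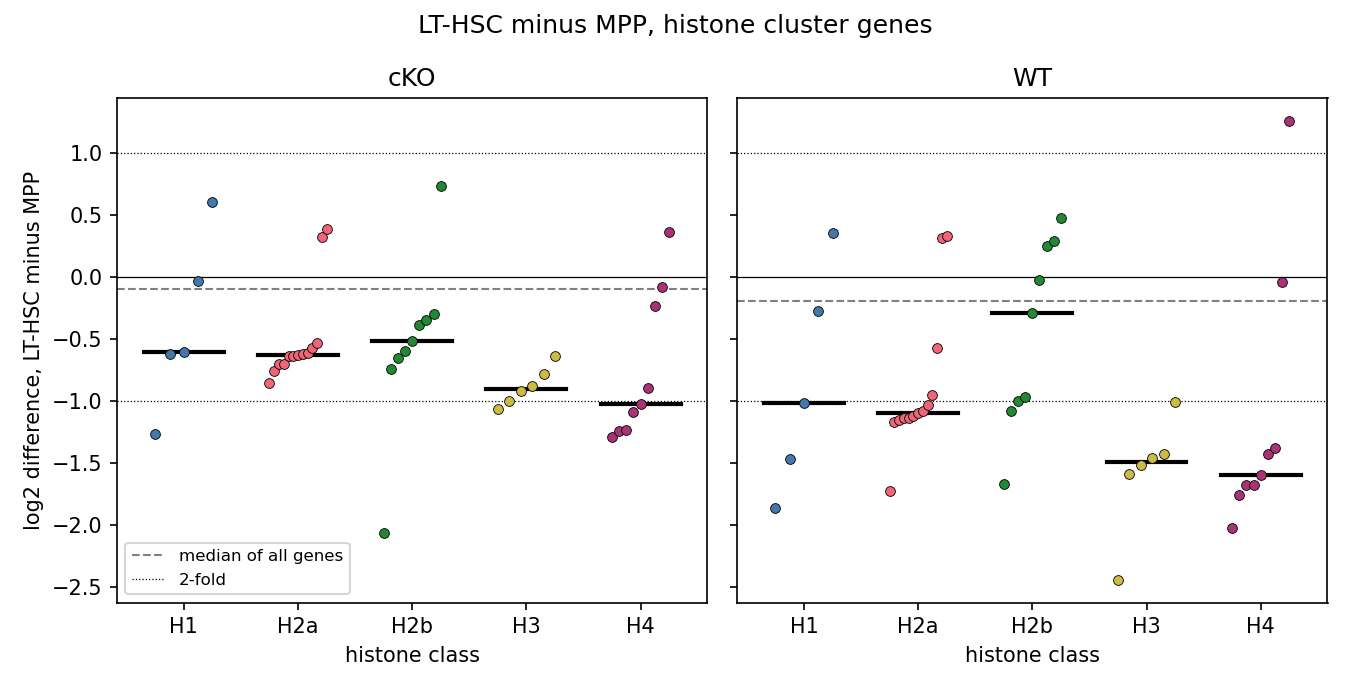
The LT-HSC minus MPP difference in log2 units is plotted for each gene by histone class, in cKO on the left and WT on the right, with bars at the class medians. The dashed line is the median of all genes and dotted lines mark 2-fold. In WT all 6 H3 genes and 7 of 9 H4 genes lie below the lower dotted line.

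Among the H1 genes, Hist1h1a had levels of 3.15 on cKO LT-HSC, 2.20 on WT LT-HSC, 3.77 on cKO MPP and 4.06 on WT MPP. The LT-HSC minus MPP difference was -0.62 ± 0.20 in cKO and -1.86 ± 0.20 in WT. Hist1h1e, another main somatic linker histone, had levels of 2.44, 2.27, 3.70 and 3.75 in the same order of arrays. Both were low on the LT-HSC arrays, and for Hist1h1e the 2 genotypes lay within 0.2 of each other in each population. Hist1h1b was lower in LT-HSC by 0.60 ± 0.20 in cKO and by 1.01 ± 0.20 in WT on the log2 scale. Hist1h1t, the linker histone of the testis, stayed nearest to 0 of its class, with LT-HSC minus MPP at -0.03 ± 0.23 in cKO and -0.28 ± 0.23 in WT.

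Hist1h1c ran the other way. Its levels were 2.35 on cKO LT-HSC, 2.68 on WT LT-HSC, 1.74 on cKO MPP and 2.33 on WT MPP. LT-HSC minus MPP was 0.61 ± 0.20 in cKO and 0.36 ± 0.20 in WT. This linker histone gene is known to give polyadenylated mRNA as well. It was chosen for mention after its values were seen.

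The H2a probes with shared letters behaved almost as 1 measurement. Hist1h2ah had levels of 7.27 on cKO LT-HSC, 6.89 on WT LT-HSC, 7.88 on cKO MPP and 8.06 on WT MPP. Hist2h2ac, on chromosome 3, had 6.89, 6.62, 7.53 and 7.76 in the same order. In both, cKO LT-HSC lay between WT LT-HSC and the MPP arrays. Over the 7 H2a genes with such probes the LT-HSC minus MPP difference spanned only -0.70 to -0.61 in cKO and -1.17 to -1.03 in WT. Since the probes share runs of letters, the 7 genes are not 7 separate measurements. Hist1h2ag belongs to this group, with differences of -0.70 in cKO and -1.15 in WT.

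Hist1h2ab, whose probe ends in the first letters of the stem-loop, had levels of 1.62 on cKO LT-HSC, 0.73 on WT LT-HSC, 2.19 on cKO MPP and 2.45 on WT MPP. It was therefore lower in LT-HSC by 0.57 ± 0.20 in cKO and by 1.72 ± 0.20 in WT on the log2 scale. Hist2h2ab, a dim probe, gave -0.86 ± 0.32 in cKO and -1.14 ± 0.31 in WT. The probes of Hist2h2aa1 and Hist3h2a stood apart from the class. Their LT-HSC minus MPP differences were 0.32 ± 0.20 and 0.38 ± 0.21 in cKO, and 0.31 ± 0.20 and 0.33 ± 0.21 in WT. In the Hist2h2aa1 probe the stem-loop starts at base 7, so most of the probe lies past it. The Hist2h2aa2 probe, 1 of those with shared letters, lies just before it on the same strand (mm9 chr3:96049837-96049896). That probe gave -0.62 in cKO and -1.03 in WT. Which mRNA the Hist2h2aa1 probe read was not tested.

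The H2b genes differed among themselves. Hist1h2bb had the lowest LT-HSC minus MPP difference among the 42 genes measured on both cKO arrays, with levels of 0.36 on cKO LT-HSC, 0.64 on WT LT-HSC, 2.43 on cKO MPP and 2.31 on WT MPP. Both LT-HSC arrays were low and both MPP arrays high, and LT-HSC minus MPP was -2.07 ± 0.20 in cKO and -1.67 ± 0.20 in WT. Hist1h2ba, the H2B known from the testis, and Hist1h2bm both had probes with at least 50% G and C and moved like the shared H2a probes, at -0.65 and -0.59 in cKO and -1.08 and -1.0 in WT. Whether the Hist1h2ba probe also captured other H2b mRNAs was not tested.

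Hist1h2bc and Hist2h2be, whose human counterparts are known to give polyadenylated mRNAs, had opposite signs in the genotypes. Hist1h2bc had levels of -0.75 on cKO LT-HSC, 0.92 on WT LT-HSC, -0.01 on cKO MPP and 0.44 on WT MPP, so that LT-HSC minus MPP was -0.74 ± 0.21 in cKO and 0.47 ± 0.21 in WT. Hist2h2be had levels of -1.18, 0.13, -0.79 and -0.16 in the same order, and its differences were -0.39 ± 0.21 in cKO and 0.29 ± 0.21 in WT. In both, WT LT-HSC was the highest array and cKO LT-HSC the lowest. Hist1h2be stayed nearest to 0 in its class, at -0.35 ± 0.21 in cKO and 0.25 ± 0.21 in WT.

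Among the H3 genes, Hist1h3g had the lowest LT-HSC minus MPP difference in WT among the 42 measured on both arrays. Its levels were -0.30 on cKO LT-HSC, -1.39 on WT LT-HSC, 0.76 on cKO MPP and 1.06 on WT MPP. The LT-HSC minus MPP difference was -1.07 ± 0.21 in cKO and -2.44 ± 0.21 in WT, a fold of 5.44. Hist1h3f had levels of 4.00, 3.44, 4.89 and 5.03 in the same order, and Hist1h3c had 4.76, 4.29, 5.68 and 5.75. In each of these 3 genes WT LT-HSC was lowest, cKO LT-HSC next and the MPP arrays highest. The Hist1h3f and Hist1h3c probes share a run of 36 bases, so these 2 genes are not separate measurements. Hist2h3c1 and Hist1h3i, on chromosomes 3 and 13, gave -1.0 and -0.78 in cKO and -1.52 and -1.43 in WT, and Hist1h3d, nearest to 0, gave -0.64 in cKO and -1.01 in WT.

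Among the H4 genes, Hist1h4j had levels of 2.52 on cKO LT-HSC, 1.82 on WT LT-HSC, 3.76 on cKO MPP and 3.85 on WT MPP. Its LT-HSC minus MPP difference was -1.24 ± 0.20 in cKO and -2.02 ± 0.20 in WT. Hist1h4d had 6.04, 5.65, 7.27 and 7.41 in the same order, and Hist1h4k had 6.62, 6.27, 7.71 and 7.86. All were low on both LT-HSC arrays. Hist4h4, the lone member on chromosome 6, gave -0.89 ± 0.20 in cKO and -1.68 ± 0.20 in WT, and Hist1h4c gave -1.29 ± 0.20 and -1.68 ± 0.20.

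Hist1h4h and Hist1h4m departed from the class. Hist1h4h had levels of -0.63 on cKO LT-HSC, -2.41 on WT LT-HSC, -1.0 on cKO MPP and -1.03 on WT MPP, so only WT LT-HSC was low. Hist1h4m had -1.07, 0.20, -0.83 and -1.06 in the same order, so only WT LT-HSC was high. Among the 42 genes measured on both WT arrays, Hist1h4m was the 1 higher in WT LT-HSC than in WT MPP by 2-fold or more, at 1.26 ± 0.21, and it stood at 0.88 with normexp under either scaling. It was picked out after its values were seen.

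Hist1h4i had probes that disagreed. The brightest, listed as unmapped and with a run of at least 20 bases in common with a Galns probe, had levels of 8.09 on cKO LT-HSC, 7.98 on WT LT-HSC, 8.17 on cKO MPP and 8.01 on WT MPP. It thus showed nearly the same level on every array. The next probe (mm9 chr13:22133139-22133198) had 1.37, 1.44, 2.28 and 2.52 in the same order. There LT-HSC minus MPP was -0.92 in cKO and -1.08 in WT, near the other H4 genes, so the near-0 value of Hist1h4i rested on the unmapped probe.

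Genes measured on only 1 of a pair of arrays had bounds. Hist2h2bb was at least 4.70-fold lower in WT LT-HSC than in WT MPP, and Hist1h2bp at least 3.01-fold lower, Hist2h3c2-ps at least 1.96-fold and Hist1h3a at least 1.56-fold. Hist3h2ba was at least 2.37-fold higher in WT LT-HSC than in WT MPP, and Hist1h2bq at least 2.65-fold higher in cKO LT-HSC than in cKO MPP. These signals were between 18.4 and 48.9 on the brighter array, close to background.

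The genes were also split by the base content of the probe, at 50% and after the data were seen. In cKO, 5 of the 25 genes whose probe held at least 50% G and C were lower in LT-HSC than in MPP by 2-fold or more, and 3 of the 17 with fewer. Over all genes the shares in cKO were 4.94% and 6.89%. In WT the numbers were 22 of 25 (88.0%) and 6 of 17 (35.3%). The same split over all genes ran the other way in WT, with 13.2% of genes lower at 50% or more and 19.7% below, and the medians were -0.06 and -0.25. The median of the 25 genes was -0.64 in cKO and -1.15 in WT, and that of the 17 was -0.52 in cKO and -0.29 in WT. The cDNA was made from mRNA, per the design text, and how it was primed is not given in the sources used here. How much of each signal came from polyadenylated or from stem-loop mRNA was not tested.

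**Figure D3:**
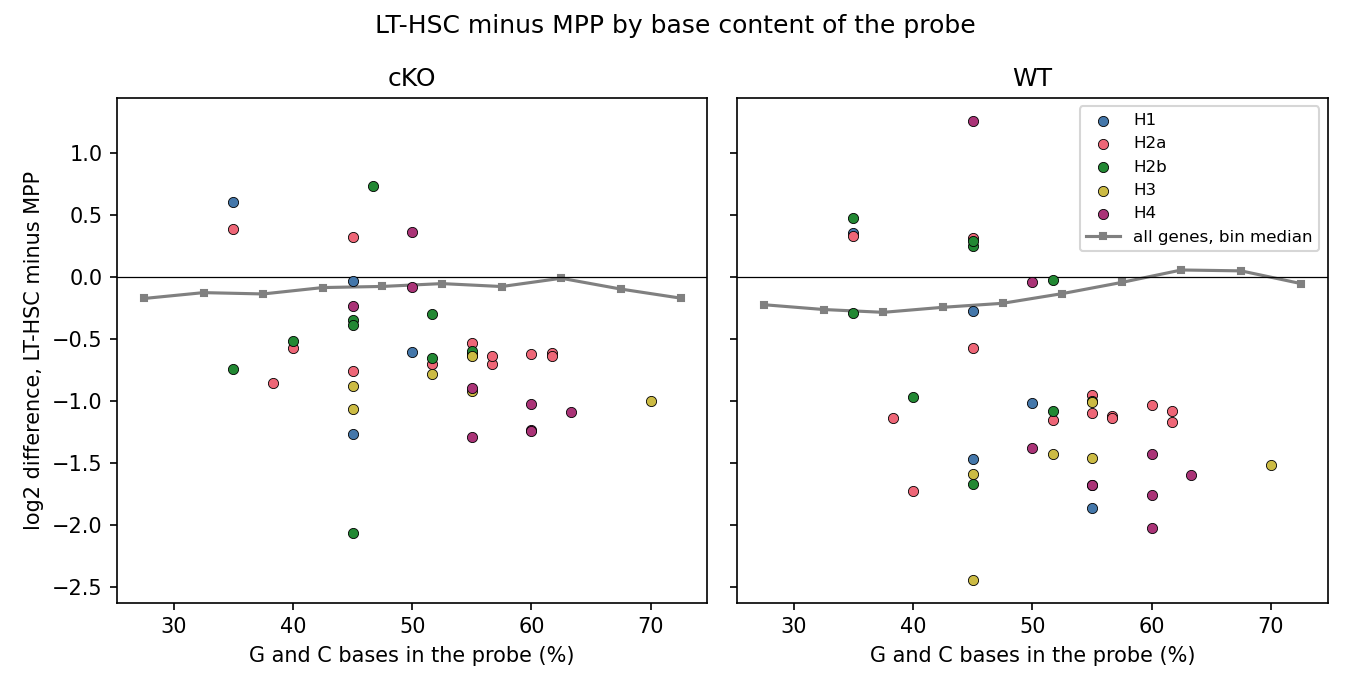
The LT-HSC minus MPP log2 difference is plotted against the share of G and C bases in the gene's probe, in cKO on the left and WT on the right, with points coloured by histone class. The grey line joins medians of all genes in bins of 5 percentage points. In WT the points at or above 0 lie at probes under 50% G and C, and the grey line there runs from -0.28 at 35% to 40% G and C to 0.06 at 60% to 65%.

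The next comparison asked how cKO differed from WT in each population. In LT-HSC, 3 of 42 histone cluster genes were higher in cKO by 2-fold or more, beside 8.98% of all genes, and 5 were lower, beside 7.91%. At 1.5-fold 7 were higher and 7 lower, beside 18.7% and 14.8% of all genes. The median cKO minus WT difference was 0.27, beside 0.10 over all genes, and 30 of the 42 were above 0, as were 14151 of 24131 genes in all. In MPP, 0 were higher (1.76% of all genes) and 3 were lower (1.89%). At 1.5-fold 0 were higher and 5 lower there, beside 6.63% and 7.53% of all genes. The median there was -0.15, beside -0.06 over all genes, and 36 of the 42 were below 0, as were 12663 of 22404 genes in all.

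In LT-HSC the genes higher in cKO by 2-fold or more were Hist1h4h at 1.78 ± 0.23, Hist1h3g at 1.09 ± 0.21 and the dim Hist1h2bq at 1.03 ± 0.33. Those lower were Hist1h2bc at -1.67 ± 0.21, Hist1h2bg at -1.33 ± 0.20, Hist2h2be at -1.30 ± 0.21, Hist1h4m at -1.27 ± 0.21 and Hist2h2aa1 at -1.12 ± 0.20. All 5 that were lower had probes with under 50% G and C, as did 1552 of the 1909 genes lower in all. Letters of 4 of the 5 probes are shown above. With normexp under either scaling 0 genes were higher by 2-fold, with Hist1h4h at 0.99 and 0.87, and 3 of the 5 stayed lower, since Hist2h2be and Hist1h4m fell short at -0.94 and -0.92 with the percentile scaling. Just short of 2-fold, Hist1h1a stood at 0.95 ± 0.20 and Hist1h2ab at 0.88 ± 0.20.

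Class medians in LT-HSC were 0.16 for H1, 0.27 for H2a, -0.28 for H2b, 0.48 for H3 and 0.36 for H4. The 7 H2a genes with shared letters lay between 0.24 and 0.39, and all 6 H3 genes between 0.26 and 1.09. These genes were higher on the cKO array by less than 2-fold except for Hist1h3g. The same WT LT-HSC array enters this comparison and the LT-HSC minus MPP comparison in WT, so the 2 are not independent.

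**Figure D4:**
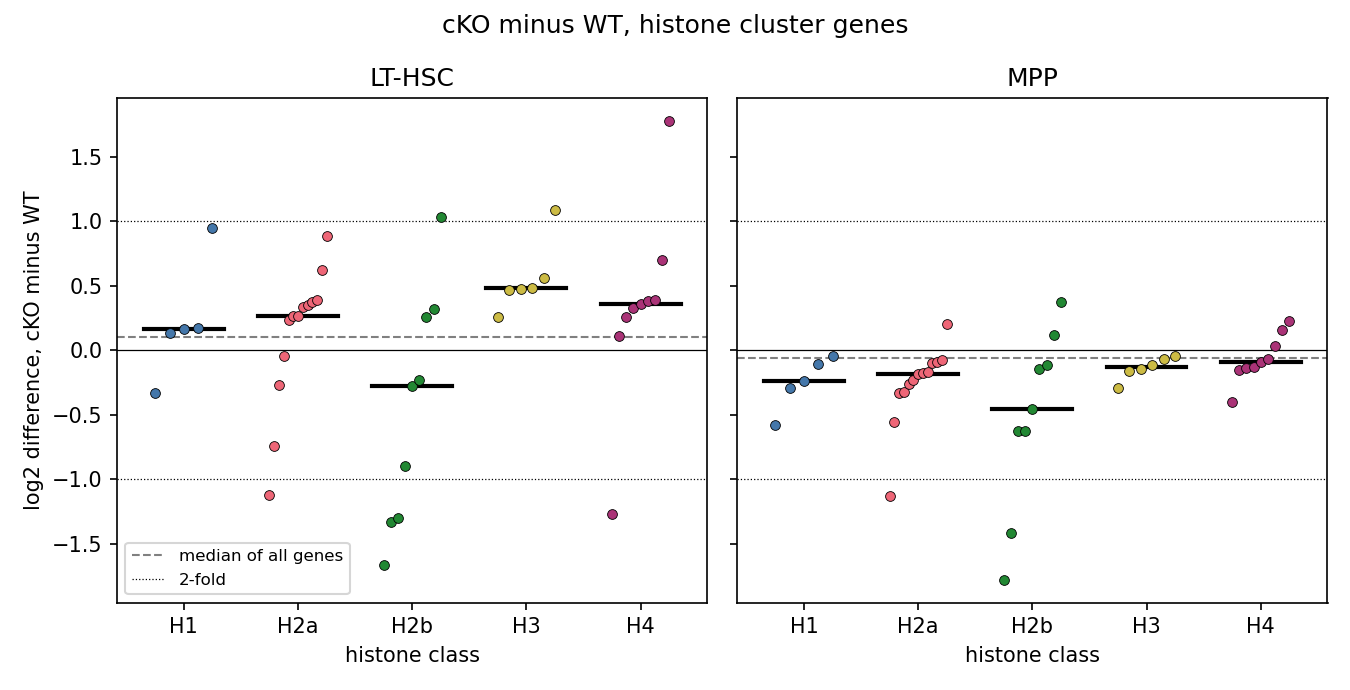
The cKO minus WT difference in log2 units is plotted for each gene by histone class, in LT-HSC on the left and MPP on the right, with bars at class medians, a dashed line at the median of all genes and dotted lines at 2-fold. In LT-HSC the H3 and most H4 genes lie above 0 and the H2b genes spread widely, while in MPP most points lie slightly below 0.

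In MPP, Hist1h2bg had levels of 0.60 on cKO MPP and 2.38 on WT MPP, a difference of -1.78 ± 0.20. On the LT-HSC arrays its levels were 0.09 in cKO and 1.42 in WT, so it was low in cKO in both populations. Hist2h2aa1 had levels of 1.35 on cKO LT-HSC, 2.47 on WT LT-HSC, 1.03 on cKO MPP and 2.16 on WT MPP, again low on both cKO arrays, at -1.13 ± 0.20 in MPP. Hist2h2bb was lower in cKO MPP by 1.42 ± 0.35 on the log2 scale, with signals under 50 on every array, and it was at least 2.92-fold higher in cKO LT-HSC than in WT LT-HSC. The lower bounds in cKO MPP against WT MPP were 2.57-fold for Hist1h2bp, 1.59-fold for Hist1h2bq, 1.40-fold for Hist1h3a and 1.27-fold for Hist2h3c2-ps, all lower, and Hist3h2ba was at least 3.28-fold lower in cKO LT-HSC than in WT LT-HSC.

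The cKO minus WT difference in LT-HSC less that in MPP had a median of 0.42 over the 41 genes measured on all arrays, beside 0.12 over all genes. It was above 0 for 33 of the 41, as for 12433 of 21541 genes in all, and its extremes were 1.75 for Hist1h4h and -1.5 for Hist1h4m. With 1 array per group this difference of differences could not be tested.

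The only test the design allowed was limma's, with an additive model of population and genotype, 1 residual degree of freedom and Benjamini-Hochberg adjustment over 25858 genes. Of 43 histone cluster genes fitted, 0 passed an adjusted p of 0.05 for a shared LT-HSC minus MPP difference, as did 0% of all genes. At an unadjusted p under 0.05, 16 of the 43 were lower in LT-HSC, beside 9.16% of all genes, and 0 were higher, beside 6.71%. The 43 include genes whose probes share letters, which are not separate measurements. The lowest adjusted p, 0.203 by limma, belonged to Hist1h2bb, with -1.87 ± 0.29 (SE) on the log2 scale, lower in LT-HSC in both genotypes. For a shared cKO minus WT difference 0 of 43 passed, and at an unadjusted p under 0.05 3 were lower (1.58% of all genes) and 0 higher (2.04%).

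Genes outside the clusters that make, place or depend on histones were set beside them, from lists chosen with earlier results of these data known. The shares of all genes lower in LT-HSC by 2-fold, 6.44% in cKO and 18.1% in WT, are the background for each list. Of 29 S phase genes measured, 8 were lower in LT-HSC than in MPP by 2-fold or more in cKO, and 17 were lower and 0 higher in WT. Their medians were -0.58 in cKO and -1.08 in WT. In WT Pole, a replicative DNA polymerase, stood at -2.74 ± 0.25, with its other probes at -1.29 and -1.27, and Tyms, which makes the thymidine precursor of DNA, at -2.25 ± 0.29. The cKO minus WT median of this list was 0.27 in LT-HSC and -0.21 in MPP, and in LT-HSC 5 were higher (8.98% of all genes) and 0 lower (7.91%). Tyms gave signals of 126.7 on cKO LT-HSC, 23.3 on WT LT-HSC, 75.5 on cKO MPP and 92.3 on WT MPP, so WT LT-HSC was the lowest array.

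Histone variant genes outside the clusters had LT-HSC minus MPP medians of -0.46 over 11 genes in cKO and -1.11 over 10 in WT. By 2-fold, 2 were lower in cKO (6.44% of all genes) and 5 in WT (18.1%), and 0 were higher in either (6.67% and 9.13%). H2afx, the variant phosphorylated at DNA breaks, had signals of 1530 on cKO LT-HSC, 909.8 on WT LT-HSC, 3221 on cKO MPP and 3368 on WT MPP, and a difference of -1.28 ± 0.20 in cKO and -2.15 ± 0.20 in WT. In WT H2afy2, a macroH2A, gave -1.46 ± 0.21 and Cenpa, the centromeric H3, gave -1.45 ± 0.20. How far the genes of this list follow S phase, and whether their probes also read cluster mRNAs, was not tested.

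Histone chaperones, which carry histones to DNA, were lower in LT-HSC by 2-fold or more for 1 of 20 genes in cKO (6.44% of all genes) and 6 of 19 in WT (18.1%), with medians of -0.60 and -0.89. In WT the lowest were Hat1, which acetylates new H4, at -1.52 ± 0.20 but 0.10 at its other probe, Set at -1.49 ± 0.20 and Hira, the H3.3 chaperone, at -1.48 ± 0.25, with -0.89 at its other probe. Genes of histone transcription and 3' end processing had medians of -0.37 in cKO and -0.59 in WT, with 4 of 21 lower in cKO, 8 of 20 lower in WT and 0 higher in either, beside the same shares of all genes. In WT Cstf3, of the cleavage stimulation factor, gave -2.88 ± 0.23 but -0.27 at its other probe, Eri1, the exonuclease that trims the histone stem-loop, gave -2.55 ± 0.24, and Ncbp2, of the cap-binding complex, gave -2.50 ± 0.20. Eri1 was higher in cKO LT-HSC than in WT LT-HSC by 2.32 ± 0.24, whereas Hinfp, the factor known for H4 gene transcription, was lower by 2.56 ± 0.23 on the log2 scale at its brightest probe and higher by 0.90 at its other probe.

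Markers of other cell types differed between the same arrays. The summed signal of 10 B lineage markers, in units of each array's 75th percentile, was 36.0 on cKO LT-HSC, 88.1 on WT LT-HSC, 2.23 on cKO MPP and 2.58 on WT MPP. On the LT-HSC arrays all 10 were well above background, and on the MPP arrays Ebf1, Igll1 and Ms4a1 were not. The sum of 10 stromal and endothelial markers was 10.65, 45.26, 21.53 and 14.96 in the same order, and that of 12 macrophage markers 37.8, 40.7, 116 and 56.8. WT LT-HSC, the array on which most histone cluster genes were lowest, had the highest B lineage and stromal sums. The stromal and endothelial markers did not all run this way. In WT 4 of 8 measured were higher in LT-HSC than in MPP by 2-fold or more (9.13% of all genes) and 2 lower (18.1%). In cKO 0 were higher (6.67%) and 2 lower (6.44%). The largest signal among them on WT LT-HSC was that of Cxcl12, at 5118, while Pecam1 gave 612.3, 123.9, 309.4 and 353.0 in the same order. The sum of 10 erythroid markers was 61.6, 94.5, 49.9 and 44.3, that of 10 granule genes 257, 209, 205 and 166, and that of 12 stem and progenitor genes 83.0, 63.3, 91.1 and 111. The last list holds Cd34 and Flt3, by which the populations were sorted. Cd34 gave signals of 3601, 1169, 6331 and 7733 in the same order. Ly6a ran the other way, at 4287, 4387, 860.1 and 939.1. In WT 5 of 11 stem and progenitor genes were lower in LT-HSC by 2-fold or more (18.1% of all genes) and 1 higher (9.13%). The granule genes did not move together. In WT 5 were higher in LT-HSC than in MPP by 2-fold or more (9.13% of all genes) and 3 lower (18.1%). In cKO 5 were higher (6.67%) and 2 lower (6.44%). The part of all these cell types in the histone differences was not tested. A smaller share of cells in S phase cannot be told apart from less histone mRNA per cell.

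Promoter letters were searched for 43 of the 49 genes found in the RefSeq promoter table (GRCm38.p6), from 250 bases before to 50 after the start, on both strands. CCAAT, the letters of the CCAAT box, stood in 37 of 43 (86.0%) and in 37.4% of all 32851 promoters. TATAAA stood in 26 of 43 (60.5%), and in 13.6% of all. ATTTGCAT, the octamer of H2B promoters, stood in 12 of 43 (27.9%), namely in 7 of 14 H2a and 5 of 9 H2b genes and in 0 of the others, and in 1.74% of all. The windows of Hist1h2aa and Hist1h2ba overlap, as do those of Hist1h2ae and Hist1h2bg. In each pair the same octamer was counted for both genes, so the counts are not all separate sites. CCAAT was found in all 6 H1, 14 H2a, 9 H2b and 6 H3 promoters and in 2 of 8 H4 promoters. These counts take in the 50 bases after the start. Within the 250 bases before the start, the H3 genes Hist2h3c1 and Hist2h3c2-ps held 0 matches to CCAAT. Some of the genes counted for TATAAA likewise held 0 matches to it there. The promoters of 2 H2a genes are shown from 250 bases before the start up to it. They were picked because, within each genotype, the Hist1h2ab probe was lower and the Hist2h2aa1 probe higher in LT-HSC than in MPP. Capitals mark matches to CCAAT (reversed, ATTGG), to TATAAA (reversed, TTTATA) and to ATTTGCAT (reversed, ATGCAAAT).
Hist1h2ab (GRCm38.p6 chr13:23750838-23751087, plus strand): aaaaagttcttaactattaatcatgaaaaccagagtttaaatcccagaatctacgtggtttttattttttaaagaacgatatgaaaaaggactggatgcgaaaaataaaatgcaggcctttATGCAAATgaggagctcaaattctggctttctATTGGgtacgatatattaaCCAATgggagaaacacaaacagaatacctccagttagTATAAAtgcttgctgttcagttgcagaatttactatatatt
Hist2h2aa1 (GRCm38.p6 chr3:96245247-96245496, plus strand): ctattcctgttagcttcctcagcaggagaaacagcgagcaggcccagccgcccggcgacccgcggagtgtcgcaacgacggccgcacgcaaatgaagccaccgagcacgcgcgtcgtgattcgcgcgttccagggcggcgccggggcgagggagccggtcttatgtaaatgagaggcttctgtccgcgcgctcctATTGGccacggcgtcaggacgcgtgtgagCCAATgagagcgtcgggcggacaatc
The printed stretch of Hist1h2ab held 2 matches to CCAAT, 1 to TATAAA and 1 to ATTTGCAT, and that of Hist2h2aa1 held 2, 0 and 0. In the same stretch Hist3h2a held 1 match to ATTTGCAT, and its LT-HSC minus MPP difference in WT was 0.33. Hist1h2af held 0 matches to TATAAA and 0 to ATTTGCAT, and its difference in WT was -1.12. Whether the letters go with the differences was not tested. The matches are letters only, and no binding was measured.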

How the data were processed

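Cy3-labelled RNA of 4 samples was hybridised to Agilent arrays of design 028005. Per the file headers, the authors' scanner tables hold spot intensities on a linear scale from Feature Extraction 10.7.3.1, background-subtracted within each array and not scaled between arrays, together with 0-or-1 scores, also from the deposited scanner tables, that flag spots as well above background, outlying or saturated. The submitters' processing notes name version 9.5.3. The series table deposited by the authors holds ratios of the signal to each probe's level over the 4 arrays. Its column medians were 97.5 for cKO LT-HSC, 91.9 for WT LT-HSC, 102.5 for cKO MPP and 107.3 for WT MPP, its differences between arrays ran the same way as those of the scanner values (r = 1 across probes), and the rule behind its scaling is unknown.

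The log2 processed signal minus the array's 75th percentile over non-control probes was used, without outlier spots, with spots of a probe averaged. A gene was represented by its brightest probe among those well above background on at least 1 array, and differences used genes well above background on both arrays. For a bound, the dim side was taken as the larger of 2 values on its array: the probe's own signal and the smallest signal flagged as well above background. No fold is given where both arrays were below background. Calls are 2-fold or more, with 1.5-fold beside them. Limma 3.58.1 (R 4.3.3) fitted, with lmFit and eBayes, the genes that 2 or more arrays flagged as well above background. The software's error of a difference came from its error per spot. Python 3.11.15 and pandas 2.3.3 did the rest, tested on simulated data. The alternatives were other scaling, background correction, filters, probe choice and the authors' table.

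Named in each class were up to 6 genes with the largest difference past 2-fold among those measured on all arrays, the gene nearest to 0 and every gene with a bound, and from each list the 3 with the largest difference in the comparison described, except for 1 gene of the S phase list whose values are not reported here. The histone genes and the lists were chosen with earlier results of these data known. All 49 genes matched a symbol in RefSeq's GRCm38.p6 table, used for names and promoter sequences; probe sequences come from the scanner files. Spots on 1 slide leave no slide effect to block.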

Additional observations from a re-analysis of the deposited data

Results flagged for a closer look

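With 1 array per group, a sample that stands apart from its group was not searched for. The values below are of genes whose difference had opposite signs in the 2 populations or the 2 genotypes, each larger than the scanner software's own error of it. In every case the difference between the populations or genotypes was not tested, and both contrasts use the same 4 arrays.

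Between cKO and WT, 5 genes were higher in LT-HSC and lower in MPP. For Hist1h3g, cKO minus WT was 1.09 in LT-HSC and -0.29 in MPP on the log2 scale. Hist1h1a stood at 0.95 in LT-HSC and -0.30 in MPP, and Hist1h2ab at 0.88 and -0.27. Hist4h4 stood at 0.38 and -0.41, and Hist2h2ac at 0.27 and -0.23, close to the error of 0.2. The other two ran the opposite way, with Hist1h4m at -1.27 in LT-HSC and 0.23 in MPP, and Hist1h2be at -0.23 and 0.37.

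Between LT-HSC and MPP, Hist1h4h stood at 0.37 in cKO and -1.38 in WT. The reverse signs were seen for Hist1h4m, at -0.24 in cKO and 1.26 in WT, and for 3 H2b genes. These were Hist1h2bc at -0.74 in cKO and 0.47 in WT, Hist2h2be at -0.39 and 0.29, and Hist1h2be at -0.35 and 0.25.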

How the results depend on the processing

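No paired analysis was possible because each group had 1 array and the labels give no replicate numbers. Medians are called moved where they changed by more than the median scanner error, and counts where they changed by over 1.5 times. The direction of the median over the histone cluster genes was kept under every scaling, filter and probe choice tried, in each of the 4 comparisons. With quantile normalization the LT-HSC minus MPP median was -0.42 in cKO and -0.67 in WT, and with normexp and quantile normalization -0.34 and -0.61, beside -0.64 and -1.11 as reported. The median of all genes in WT lay at -0.20 as reported and at -0.06 and -0.03 under these settings, so the histone cluster genes stood 0.91 below all genes as reported, against 0.61 and 0.58. The count of genes lower by 2-fold or more was 5 in cKO and 14 in WT with quantile normalization, 4 and 11 with normexp and quantile normalization, and 5 and 18 where the percentile came from the probes that every array measured above background, beside 8 and 28 as reported. Higher by 2-fold in LT-HSC were 1 gene in cKO and 2 in WT with no filter on dim probes, and 0 in WT with normexp under either scaling. At 1.5-fold, 28 were lower and 2 higher in cKO.

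For cKO against WT in LT-HSC, normexp under either scaling left 0 genes higher by 2-fold and 3 lower, the absence of a filter gave 5 higher, and 1.5-fold gave 7 higher. In MPP, 1 was lower with normexp and quantile normalization, 6 with no filter and 5 at 1.5-fold. The other settings, among them the authors' table, moved none of these counts or medians. Of 1688 values of single genes and classes under an alternative, 1512 stayed within the scanner error, 176 moved beyond it and 0 past 2-fold changed sign. Leaving out the probes listed as unmapped, an alternative chosen after seeing the data, moved 3. In limma's fit 0 histone cluster genes passed under any of the 5 alternatives, and at an unadjusted p under 0.05 between 12 and 27 were lower in LT-HSC and at most 1 higher, beside 16 and 0 as reported. The causes of these shifts were not tested.

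Of all genes past 2-fold, the share that was higher moved with the scaling. It was 50.9% in cKO and 33.5% in WT for LT-HSC minus MPP as reported, 62.6% and 44.1% with that percentile, and 66.0% and 46.8% with normexp and quantile normalization. For cKO minus WT in MPP it was 48.3% as reported, and 58.3% and 63.9% under these. Signal near background limits the differences of the dimmest probes, as in the genes given only bounds.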
